A study of Mus musculus with 103 samples.

Results

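In mouse macrophages treated with an agonist of the liver X receptors (LXR), 4269 of 13984 SREBP1 ChIP-seq peaks (30.5%) had their centre within 1 kb of a transcript start and shared no base with any of 40660 LXR peaks. They were chosen by that rule alone from the authors' 2 peak lists and the transcript starts of their RNA table, all on mouse build mm9, and they made up 77.3% of the 5522 SREBP1 peaks near a start. The other 1253 promoter peaks overlapped an LXR peak by at least 1 base. The cells were thioglycollate-elicited peritoneal macrophages of male C57BL/6 mice aged 6 to 8 weeks, collected by lavage 3 to 4 days after the injection and starved overnight in 0.5% serum. For ChIP-seq the cells received 1 µM GW3965, a synthetic LXR agonist. The SREBP1 label gives 18 h of it, while the header of the LXR list names 5 h and the LXR sample's treatment characteristic reads as a control in spite of its title. The peaks were related to the poly(A) RNA of the same kind of cells in 6 libraries, 1 per condition: 2 untreated libraries, of which the first is the control for 1, 6 and 12 h and the second for 24 h, and cells given 100 ng/ml Kdo2-lipid A (KLA, a TLR4 agonist) for 1, 6, 12 or 24 h. No library of GW3965-treated RNA is analysed here, so binding and RNA were measured under different treatments.

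SREBP1 and its relative SREBP2 are membrane-bound transcription factors of the endoplasmic reticulum. When sterols are low, SCAP carries them to the Golgi, where proteases release the part that enters the nucleus. There it binds sterol regulatory elements and E-boxes, usually beside sites of the general factors NF-Y and Sp1, in the promoters of genes for cholesterol and fatty acid synthesis. LXR is a nuclear receptor for oxysterols that induces genes of cholesterol efflux and also the gene of SREBP1, so its agonists raise fatty acid synthesis through SREBP1 in liver.

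The SREBP1 list was called from 24395376 tags and the LXR list from 7501248, and the approximate IP efficiency given in the headers was 1.75% and 17.85%. The 6 RNA libraries held 2205187 to 2674826 reads, and 9266 to 10172 genes reached an RPKM (a read count divided by transcript length and by library size) of 1. The 9 macrophage markers summed to 6679 to 11550 RPKM per library, against 51.5 to 132 for neutrophil markers with Mpo at 0 in all, 9.59 to 18.0 for lymphocyte markers, 1.06 to 8.02 for mast cell and eosinophil markers and 102 to 188 for fibroblast and mesothelial markers. In bulk RNA fewer cells of a type and less RNA per cell cannot be told apart. Hmgcs1, which encodes the cytosolic HMG-CoA synthase, has a listed value of 0 in every library, and a 0 may mean only that no read was assigned to a gene.

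The promoters of 8 genes with a peak centred just upstream of the start are shown, where the letters of known SREBP sites and partners can be read. They were chosen after their values were seen and not by rank. Their peaks ran from 125.4 tags at Srebf2 to 19.7 at Msmo1, which ranked 161 among members. Stronger peaks just upstream, such as those at Tmem180 (41.4 tags, -87) and Nup107 (38.9 tags, -183), are not shown. The sequences are RefSeq promoters of build GRCm38.p6, matched by gene identifier, from 250 bases before the start to the base before it, on the gene's strand. Capitals mark the sterol regulatory letters TCACNCCA, the E-box core CACGTG and the NF-Y box CCAAT on either strand. The genes encode SREBP2 (Srebf2, chr15:82147019-82147268, + strand), lanosterol synthase (Lss, chr10:76531355-76531604, + strand), lathosterol oxidase (Sc5d, chr9:42264301-42264550, - strand), mevalonate diphosphate decarboxylase (Mvd, chr8:122443423-122443672, - strand), the SCAP-retaining protein INSIG1 (Insig1, chr5:28071162-28071411, + strand), methylsterol monooxygenase (Msmo1, chr8:64733579-64733828, - strand), the zinc finger factor KLF6 (Klf6, chr13:5861239-5861488, + strand) and the actin-binding protein anillin (Anln, chr9:22389207-22389456, - strand).
Srebf2: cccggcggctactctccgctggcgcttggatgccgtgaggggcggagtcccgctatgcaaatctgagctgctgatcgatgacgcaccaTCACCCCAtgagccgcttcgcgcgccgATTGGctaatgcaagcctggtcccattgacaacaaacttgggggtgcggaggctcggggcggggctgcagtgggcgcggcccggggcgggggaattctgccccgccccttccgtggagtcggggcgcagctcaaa
Lss: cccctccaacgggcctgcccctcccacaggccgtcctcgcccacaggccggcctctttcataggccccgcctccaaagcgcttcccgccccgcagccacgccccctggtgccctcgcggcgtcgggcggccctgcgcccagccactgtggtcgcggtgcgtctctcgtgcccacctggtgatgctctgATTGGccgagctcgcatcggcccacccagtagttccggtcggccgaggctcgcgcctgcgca
Sc5d: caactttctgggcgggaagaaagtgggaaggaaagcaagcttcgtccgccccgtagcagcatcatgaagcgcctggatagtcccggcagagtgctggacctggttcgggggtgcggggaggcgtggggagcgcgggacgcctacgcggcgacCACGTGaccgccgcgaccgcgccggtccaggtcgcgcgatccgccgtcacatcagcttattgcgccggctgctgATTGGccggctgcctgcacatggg
Mvd: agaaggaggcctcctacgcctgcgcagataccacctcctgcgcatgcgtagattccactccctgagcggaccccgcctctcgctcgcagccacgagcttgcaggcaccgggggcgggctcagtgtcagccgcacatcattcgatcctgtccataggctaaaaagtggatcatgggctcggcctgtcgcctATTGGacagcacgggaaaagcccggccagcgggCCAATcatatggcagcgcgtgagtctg
Insig1: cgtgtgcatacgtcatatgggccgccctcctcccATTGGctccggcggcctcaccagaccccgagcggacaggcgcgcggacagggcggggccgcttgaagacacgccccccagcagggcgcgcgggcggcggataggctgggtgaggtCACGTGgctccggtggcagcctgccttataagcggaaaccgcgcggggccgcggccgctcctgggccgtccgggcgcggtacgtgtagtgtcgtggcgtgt
Msmo1: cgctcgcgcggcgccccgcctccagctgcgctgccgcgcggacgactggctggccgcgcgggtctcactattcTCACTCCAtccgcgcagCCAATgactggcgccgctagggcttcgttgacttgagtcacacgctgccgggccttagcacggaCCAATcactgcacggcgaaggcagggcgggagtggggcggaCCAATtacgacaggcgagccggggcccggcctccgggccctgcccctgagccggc
Klf6: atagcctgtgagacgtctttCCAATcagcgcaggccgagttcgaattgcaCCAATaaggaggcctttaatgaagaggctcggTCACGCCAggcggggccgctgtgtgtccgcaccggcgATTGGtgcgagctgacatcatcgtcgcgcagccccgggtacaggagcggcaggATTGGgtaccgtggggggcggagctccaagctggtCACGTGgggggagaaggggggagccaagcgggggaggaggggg
Anln: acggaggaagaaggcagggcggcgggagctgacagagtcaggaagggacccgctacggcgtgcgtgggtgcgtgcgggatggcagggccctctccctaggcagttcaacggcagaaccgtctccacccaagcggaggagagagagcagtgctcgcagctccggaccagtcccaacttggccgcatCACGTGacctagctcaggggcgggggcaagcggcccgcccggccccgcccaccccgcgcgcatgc

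In the Srebf2 promoter the letters TCACCCCA began at -162 and an ATTGG, the NF-Y box on the opposite strand, at -135. The peak centre lay at -152 from the start listed in the RNA table. In Klf6 the letters TCACGCCA began at -168 and the peak centre lay at -159, with a CACGTG at -43 and NF-Y boxes at -230, -200, -131 and -78. Msmo1 held TCACTCCA at -177 and NF-Y boxes at -160, -96 and -55, with the peak centre at -73. Sc5d and Insig1 held a CACGTG at -98 and -101 and an NF-Y box at -24 and -216, and their peaks were centred at -82 and -187. Anln, with a peak of 27.1 tags centred at -196, held the longer E-box TCACGTGA, whose CACGTG began at -65. None of the 8 held the full core TCACNCCAC. Lss and Mvd held neither sterol regulatory nor E-box letters in this window, but an NF-Y box at -62 in Lss and NF-Y boxes at -60 and -27 in Mvd. Positions in promoters are counted from RefSeq starts and those of peaks from the starts of the authors' table, which were not compared across builds.

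Letters of the sterol regulatory element were uncommon in promoters near these peaks, with higher shares near peaks of more tags. Of the 4269 peaks, 3436 (80.5%) matched a gene with a RefSeq promoter, and shares were taken over genes with exactly 1 promoter of 300 bases (250 before to 50 after the start), on both strands. The core TCACNCCAC was in 1.19% of 22862 promoters in the table and in 0.96% of the 6668 whose gene had an RPKM of at least 1 in 2 libraries. It was in 9 of 501 promoters (1.80%) with a peak centred from -250 to 50, in 5 of 130 (3.85%) with at least 15 tags and in 4 of 46 (8.70%) with at least 20. The shorter TCACNCCA, searched after the sequences had been seen, was in 4.19% of all promoters, 3.49% of those of expressed genes, and 4.99%, 10.0% and 17.4% of the 3 sets near peaks. TCACGTGA, which also contains the core CACGTG, was in 0.997% of all promoters, 2.29% of those of expressed genes and 2.40%, 4.62% and 6.52% of the 3 sets. The core CACGTG was in 7.12% of all promoters, 10.8% of those of expressed genes and 13.2%, 15.4% and 19.6% of the 3 sets. These letters were not particular to peaks without LXR. Of 369 promoters with a shared peak centred from -250 to 50, of any tag count, 2.71% held TCACNCCAC, 7.05% TCACNCCA, 3.25% TCACGTGA and 11.9% CACGTG. The NF-Y box CCAAT was in 38.2% of all and 38.1%, 43.1% and 50.0% of the 3 sets. The GC box GGGCGG stood at 35.2% of all promoters but at 67.1% of those of expressed genes. It was in 67.9%, 69.2% and 76.1% of the 3 sets, so a higher share near peaks of more tags was not limited to SREBP letters. The median GC content was 52.3% over all promoters, 61.0% over those of expressed genes and 60.7%, 61.2% and 64.2% in the 3 sets. The nuclear receptor letters AGGTCA were in 16.0% of all promoters and 11.8% of those of expressed genes. They were in 11.2%, 14.6% and 17.4% of the 3 sets, and in 16.8% of promoters near promoter peaks shared with LXR. These shares are descriptions of RefSeq letters and were not tested.

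The strongest peaks of the set lay at genes of the mevalonate and sterol pathway. The normalised tag count, given by the authors per 10000000 tags, ranged from 6.15 to 125.4 with a median of 10.2, and only 28 peaks reached 30. Srebf2 was highest at 125.4 tags (chr15:81977450-81977644 on mm9), followed by Fdps, the gene of farnesyl diphosphate synthase, at 119.3 (chr3:88905926-88906120). Lss had 67.6, Pdp2 (a phosphatase that activates pyruvate dehydrogenase) 59.8 and Idi1 (isopentenyl diphosphate isomerase) 54.5. Pgd, of the pentose phosphate pathway that supplies NADPH, had 54.1, the endosomal GTPase gene Rab5b 49.6, Fdft1 (squalene synthase) 47.5, Sc5d 43.0 and Mvd 42.2. Of the 12 strongest peaks, 9 belonged to genes of the 5 lipid lists, as did 13 of the 28 peaks with at least 30 tags, against 42 of the 4269 in all. Further strong peaks lay at Fads1 (a fatty acid desaturase) with 35.7 tags, Fasn (fatty acid synthase) with 34.8, Hif1a with 34.0, Insig1 with 33.2, and Scd1 (stearoyl-CoA desaturase) and Klf6 with 32.8 each.

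**Figure D1:**
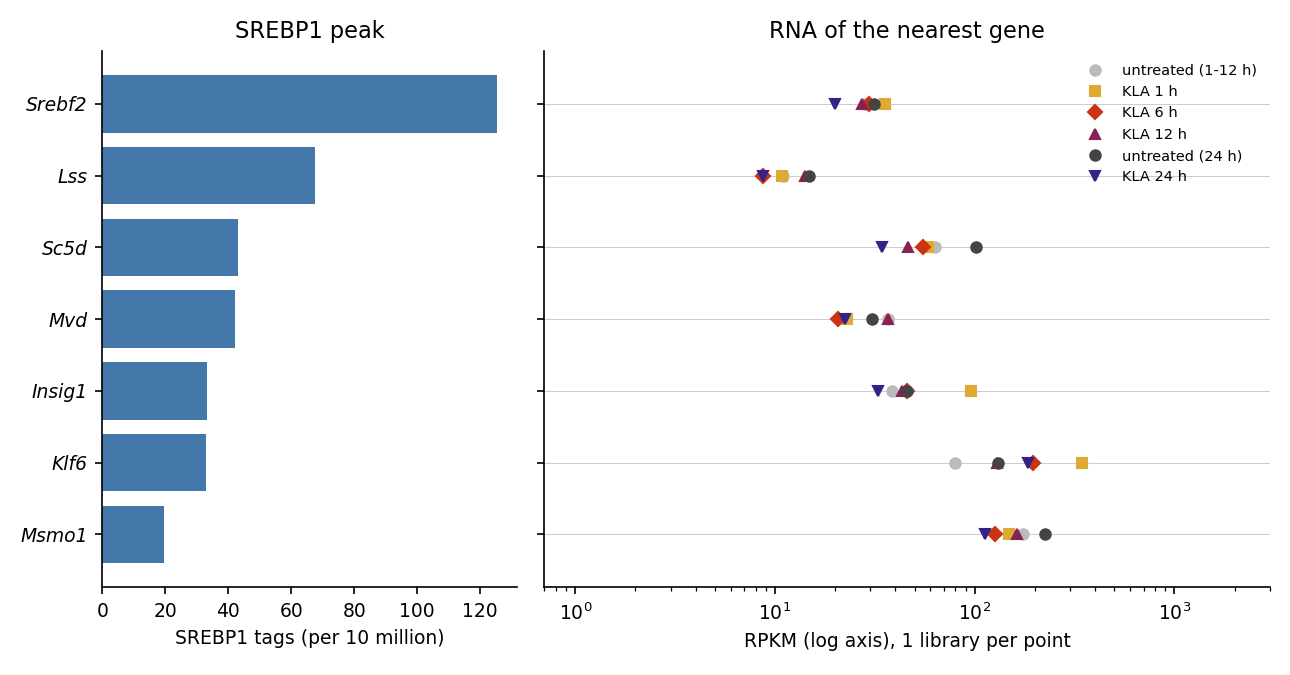
Left, normalised SREBP1 tag count (tags per 10000000) of the promoter peak without LXR at 7 of the genes whose promoter is printed, and right, the RPKM of that gene in 6 libraries on a log axis, 1 point per library. Srebf2 has the longest bar at 125.4 tags, while the RNA levels run from 8.68 RPKM, the lowest of Lss, to 342.8, the highest of Klf6.

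Peaks without LXR were weaker than those shared with it, and the share without LXR was smaller at stronger peaks. The median tag count was 10.2 against 12.7 for shared promoter peaks, and 0.656% against 4.23% reached 30 tags. Of the promoter peaks with fewer than 10 tags, 86.4% lacked LXR, of those with 10 to 15 tags 76.7%, with 15 to 20 tags 62.3%, with 20 to 30 tags 53.0% and with 30 or more 34.6% (28 of 81). Away from starts, 69.8% of 8462 SREBP1 peaks lacked LXR. The LXR overlap is part of the rule, so these shares are descriptions. The 2 lists also differed in depth and IP efficiency, whose part in the overlap was not tested.

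**Figure D2:**
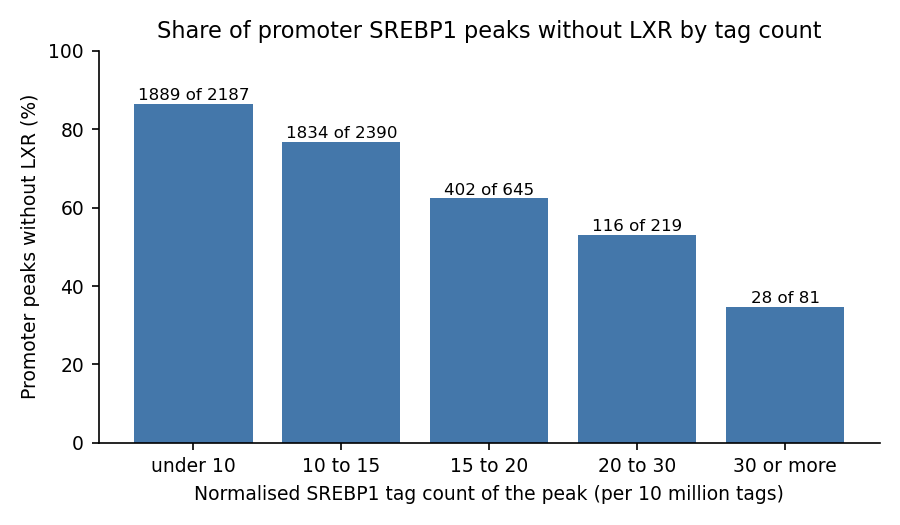
Percent of promoter SREBP1 peaks that share no base with an LXR peak, by normalised SREBP1 tag count, with the number of peaks above each bar. The share is 86.4% under 10 tags and 34.6% at 30 tags or more.

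Weak and strong members lay at different places around the start. The median centre of all members was 166 bases downstream of the nearest start, with quartiles at -231 and 533, and 1680 of them (39.4%) lay upstream. With fewer than 10 tags the median was 305 bases downstream and 33.5% were upstream. With 30 tags or more the median was -87, with 20 of 28 (71.4%) upstream and 22 of 28 centred from -250 to 50, where 809 of all 4269 (19.0%) were. Peaks under 15 tags had their fullest 100-base bin at 500 to 600 bases downstream, with 9.29% of them, and 3.92% in the 100 bases before the start. Peaks with 15 tags or more had 11.4% in those 100 bases and 4.40% at 500 to 600. Shared promoter peaks had a median of -82 and 44.3% of them from -250 to 50. All of these positions come from the peak list that the rule used and were not tested.

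**Figure D3:**
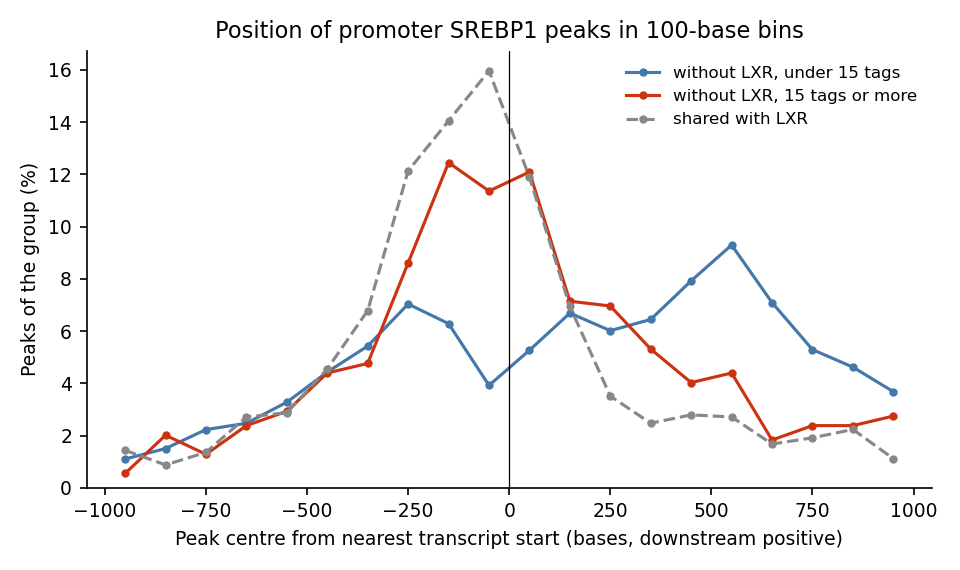
Distance of the peak centre from the nearest transcript start in 100-base bins, downstream positive, as percent of each group: members under 15 tags, members with 15 tags or more, and promoter SREBP1 peaks shared with LXR. The weaker members are fullest at 500 to 600 bases downstream (9.29%), the shared peaks in the 100 bases before the start (16.0%).

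Lack of a shared base did not always mean a distant LXR peak. An LXR centre lay within 500 bases of the SREBP1 centre for 1032 members (24.2%) and within 1000 bases for 1929 (45.2%), while 1189 (27.9%) had none within 10 kb. The median gap to the nearest LXR peak was 1064 bases. LXR peaks stood 69 bases from the Srebf2 peak (40.0 LXR tags), 26 from that of Sc5d (20.0) and 490 from that of Fasn (433.3 LXR tags), but 12043 bases from that of Fdps, 11063 from that of Lss, 11723 from that of Idi1 and 15364 from that of Fdft1. Sterol genes with no LXR nearby and genes with LXR on the neighbouring bases were thus both present. Of the 3873 nearest genes, 1745 (45.1%) were also the nearest gene of a promoter LXR peak, against 25.0% of the 24014 genes in the table. Expressed genes made up 83.4% of the nearest genes but 44.2% of all genes. The LXR share was not taken over expressed genes alone, so a difference beyond expression was not tested. A shared promoter peak was present beside the member at 246 genes (6.35%). At Insig1 the shared peak lay 634 bases downstream with 84.4 tags and the member at -187 with 33.2.

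Just inside 1 kb were peaks at Slc25a22 (8.61 tags, centre at -1000), Mir5133 (13.5 tags, 1000 bases downstream) and Gpd1l (7.38 tags, 999 bases downstream), and just outside were peaks nearest to Sod2 (8.20 tags, 1001 bases), Inpp5b (12.7 tags, -1001) and Ascc3 (11.5 tags, -1002). The members closest to an LXR peak, at a gap of 1 base, were at Serpinb9 (7.79 tags), Dpp9 (7.38) and Pdpn (11.1). Peaks left out for 1 shared base were at Wdr45b (13.1 tags), Dpcd (13.9) and Trex1 (12.3). At 597 members (14.0%) 2 or more genes had a start within 1 kb, so that the nearest gene is not the only candidate. One such peak, of 10.2 tags, was nearest to Nadsyn1 and stood at -659 from Dhcr7, the gene of the last enzyme of cholesterol synthesis. The 3873 nearest genes carried 1 peak in 3488 cases, 2 in 374 and 3 in 11.

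Lipid synthesis lists held larger shares of genes with a member than all genes did, a difference that was not tested. A gene was the nearest of a member in 16.1% of all 24014 genes and in 30.5% of the 10605 genes with an RPKM of at least 1 in 2 libraries. In the list of cholesterol synthesis and uptake 13 of 28 genes (46.4%) had one, with 6 more that had a shared promoter peak alone (Pmvk, Cyp51, Tm7sf2, Stard4, Npc1 and Tmem97) and 9 with neither. In fatty acid synthesis and desaturation 10 of 22 had one (45.5%), with Acly, Scd2, Acsl3 and Mid1ip1 among those with a shared peak alone. The list of SREBP processing and regulation had 7 of 12, triglyceride and phospholipid synthesis 9 of 20 and LXR receptors and targets 6 of 19 (31.6%). In all, 41 of 95 genes on these lists had a member. Among the other lists the count was 8 of 14 E-box clock genes, 15 of 40 lysosome and autophagy genes, 21 of 55 translation initiation factors, 25 of 77 mitochondrial and 19 of 77 cytosolic ribosomal proteins, 26 of 92 genes of the respiratory chain and ATP synthase, 9 of 25 immediate early and stress factors, 98 of 333 Zfp zinc finger genes, 19 of 68 splicing factors, 6 of 25 interferon response genes, 6 of 30 inflammatory genes, 7 of 39 proteasome subunits and 73 of 374 solute carriers. The median tag count of the cholesterol list's peaks was 43.0, against 13.5 for fatty acid synthesis, 12.7 for the lysosome list and 9.43 for the clock list, whose highest, at Nr1d1, had 16.8.

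The nearest genes were mostly expressed. Of the 3873, 3231 (83.4%) passed the filter of an RPKM of at least 1 in 2 libraries, against 44.2% of all genes, and 132 were listed at 0 in all 6. Their median was 6.64 RPKM in the first and 6.81 in the second untreated library, against 0.188 and 0.219 over all genes and 8.77 and 9.21 for the nearest genes of shared promoter peaks. Over the genes that passed, the medians were 9.29 and 9.24, beside 8.15 and 8.45 for all that passed. The median in the first untreated library was 5.59 RPKM for genes with a peak under 10 tags and 19.8 for those with 30 tags or more.

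Cholesterol genes with a strong peak ranged in RNA level from Idi1, near 1 RPKM, to Sc5d. In what follows, RPKM are given in the order first untreated library, KLA 1, 6 and 12 h, second untreated library, KLA 24 h, and intervals on a ratio cover counting error of the recovered reads alone (95%, exact binomial). Srebf2 stood at 28.3, 35.6, 29.7, 27.3, 31.2 and 20.1 RPKM. Fdps, with the second strongest peak, stood at 15.3, 9.71, 14.9, 21.7, 11.2 and 11.1 RPKM, and all 4 of its intervals included no change. Lss stood at 11.0, 10.9, 8.70, 14.1, 14.7 and 8.68 RPKM. Idi1 stood at only 1.74, 1.31, 1.47, 1.28, 1.89 and 0.913 RPKM, from 7 to 14 reads a library. Fdft1 ranged from 7.06 to 13.1 RPKM and Mvd from 20.6 to 36.7.

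Sc5d, Sqle and Msmo1, enzymes of the sterol part of the pathway, were lower at 24 h. Sc5d stood at 63.3, 58.6, 54.9, 46.5, 101 and 34.4 RPKM, and was 2.94-fold lower at 24 h (2.50 to 3.46). The second untreated library was the highest for Sc5d and the KLA 24 h library the lowest. Sqle, the squalene epoxidase, stood at 38.8, 44.6, 26.1, 39.7, 57.7 and 25.3 and was 2.28-fold lower (1.91 to 2.73). Msmo1, the most abundant of them, stood at 174, 148, 126, 163, 225 and 113 and was 1.99-fold lower (1.79 to 2.21). The first untreated library was below the second for these 3 genes, and against it the KLA 24 h library was 1.84-fold lower for Sc5d (1.54 to 2.20), 1.53-fold for Sqle and 1.54-fold for Msmo1. Of the 13 cholesterol list genes with a member, none was at least 2-fold higher at any time on the log2(RPKM + 1) scale. At 1, 6, 12 and 24 h 0, 1, 1 and 4 of them were at least 2-fold lower, and Lpin1 was the one at 6 and 12 h. Over all 10605 genes tested, 3.65%, 9.35%, 8.88% and 9.98% were at least 2-fold higher at these times, and 4.09%, 22.4%, 16.3% and 10.6% lower. The median log2 ratio of the 13 genes at 24 h was -0.70, beside -0.71 for the 6 list genes with a shared peak alone and -0.42 for the 7 tested genes with neither. Lpin1, which encodes a phosphatidate phosphatase of glycerolipid synthesis and is on 3 of the lipid lists, had a peak of 9.02 tags and stood at 12.3, 7.22, 0.538, 0.298, 12.8 and 0.478 RPKM. It was 22.9-fold lower at 6 h (10.8 to 58.0) and 26.7-fold at 24 h (12.7 to 67.4).

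Among the genes of fatty acid synthesis, Fads1 and Elovl5 were the 2 at least 2-fold lower at 6 h. Fads1 stood at 27.8, 19.4, 4.51, 9.81, 26.4 and 10.8 RPKM and was 6.17-fold lower at 6 h (4.33 to 9.00). Elovl5, a fatty acid elongase with a weak peak of 9.43 tags, stood at 35.7, 23.4, 9.55, 9.56, 47.8 and 24.3 and was 3.74-fold lower at 6 h (2.82 to 5.03). Fasn stood at 4.24, 3.31, 2.59, 4.24, 5.25 and 2.75 RPKM, and Scd1 at 2.53, 2.93, 1.66, 3.46, 7.67 and 7.04, so that the 2 untreated libraries differed more for Scd1 than any KLA library did from its own control. The acyl-CoA synthetase gene Acsl5 went the other way, with 29.2, 27.9, 47.8, 67.7, 34.8 and 77.6 RPKM, and was 2.32-fold higher at 12 h (1.97 to 2.74) and 2.23-fold at 24 h (1.94 to 2.57). With the other untreated library as control Acsl5 at 12 h was under 2-fold (1.94-fold, 1.68 to 2.25). Of the 10 genes of the list with a member, 0, 0, 1 and 1 were at least 2-fold higher and 0, 2, 2 and 1 at least 2-fold lower at the 4 times. Over all genes tested 8.88% were higher and 16.3% lower at 12 h, and 9.98% higher and 10.6% lower at 24 h. At 6 h 22.4% of all 10605 genes tested were at least 2-fold lower, as were 3 of the 4 list genes with a shared peak alone and 0 of the 4 tested with neither.

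Of the 7 regulators of SREBP with a member, Insig1 was the one at least 2-fold higher at 1 h. Insig1 stood at 38.4, 96.2, 45.5, 43.2, 45.9 and 32.6 RPKM and was 2.51-fold higher at 1 h (2.15 to 2.93). Rnf139, a ubiquitin ligase of the sterol-sensing pathway, stood at 11.5, 7.38, 27.2, 17.8, 15.2 and 23.3 and was 2.37-fold higher at 6 h (1.90 to 2.99), but under 2-fold against the other untreated library (1.79-fold, 1.48 to 2.18). In the phospholipid list, Pcyt1a, the rate-limiting enzyme of phosphatidylcholine synthesis, stood at 81.6, 68.5, 43.4, 29.0, 101 and 30.4 and was 3.32-fold lower at 24 h (2.97 to 3.74). Lpcat3, which puts polyunsaturated chains into phospholipids and had 25.8 tags, stayed between 13.8 and 20.5 RPKM. Among LXR targets with a member, the sterol exporter gene Abcg1 stood at 46.5, 31.3, 17.0, 15.2, 52.5 and 26.8 and was 3.05-fold lower at 12 h (2.61 to 3.58). Pltp, the phospholipid transfer protein, stood at 230, 183, 154, 112, 108 and 55.5, with its 2 untreated libraries far apart. Pltp was 2.05-fold lower at 12 h against the first of them (1.84 to 2.29) and 1.04-fold higher against the second (0.919 to 1.18).

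After KLA, the nearest genes of the peaks were called higher or lower in shares near those of all expressed genes. Calls are on the log2(RPKM + 1) scale, which understates the ratio of genes of low RPKM. Of the 3231 that passed the filter, 94 (2.91%) were at least 2-fold higher at 1 h, beside 3.65% of all 10605 genes tested, and 124 (3.84%) at least 2-fold lower, beside 4.09%. At 6 h 251 (7.77%) were higher, beside 9.35%, and 755 (23.4%) lower, beside 22.4%. At 12 h 222 (6.87%) were higher, beside 8.88%, and 510 (15.8%) lower, beside 16.3%. At 24 h 259 (8.02%) were higher, beside 9.98%, and 290 (8.98%) lower, beside 10.6%. The share of higher genes was below that of all genes at each of the 4 times. So was that of the 1097 tested nearest genes of shared promoter peaks, at 2.917%, 7.201%, 6.655% and 7.84%. The median log2 ratios were -0.18, -0.49, -0.32 and -0.09, beside -0.16, -0.46, -0.32 and -0.09 over all genes. Between the 2 untreated libraries 28 (0.867%) of these genes were at least 2-fold higher in the second, beside 1.72% of all genes tested, and 55 (1.70%) lower, beside 2.42%. With the libraries rescaled so that the median of all tested genes was 0, 403 of the nearest genes (12.5%) were higher and 324 (10.0%) lower at 6 h, beside 14.2% and 9.835% of all genes tested. The higher genes were then 55.4% of those called in place of 25.0%, at 12 h 54.6% in place of 30.3% and at 1 h 59.1% in place of 43.1%. Over all genes tested they were 59.1% in place of 29.5% at 6 h, 58.2% in place of 35.3% at 12 h and 63.5% in place of 47.1% at 1 h. The times 1, 6 and 12 h share their untreated library.

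**Figure D4:**
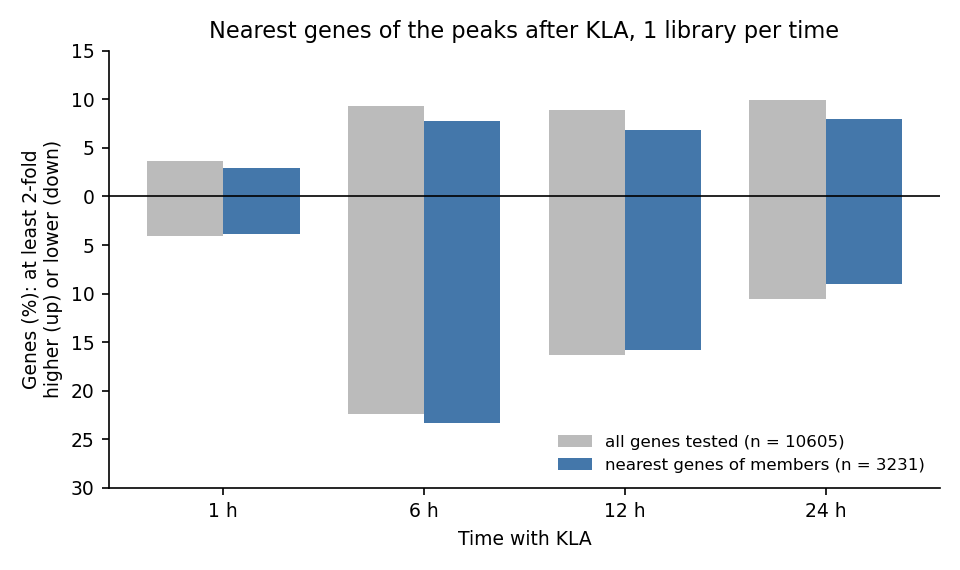
Percent of genes at least 2-fold higher (up) or lower (down) than the untreated library on the log2(RPKM + 1) scale at 1, 6, 12 and 24 h of KLA, for all genes tested (n = 10605) and for the nearest genes of promoter SREBP1 peaks without LXR (n = 3231). The lower share is largest at 6 h in both, 22.4% and 23.4%.

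The nearest genes with the largest ratios at each time, among those with an RPKM of at least 5 in 2 libraries, had peaks of 7.38 to 15.2 tags. Il1a and Nlrp3 are on the inflammatory list, Ifit1, Cmpk2 and Ifit3 on the interferon list and Dusp1 on the immediate early list, while Cd40, Edn1 and Slfn1 are on none of the lists. Il1a, the gene of the cytokine interleukin-1 alpha (10.2 tags, 599 bases downstream), stood at 21.6, 1786, 2367, 1771, 37.6 and 1410 RPKM and was 82.7-fold higher at 1 h (67.5 to 102), or 47.5-fold against the other untreated library. Nlrp3, the inflammasome sensor (10.7 tags), stood at 1.58, 127, 65.4, 33.8, 1.44 and 27.1. Dusp1, a phosphatase that turns off MAP kinases (12.3 tags), was 44.8-fold higher at 1 h (37.3 to 54.2), at 1235 against 27.6 RPKM, and back at 28.9 RPKM at 6 h. Against the other untreated library Dusp1 was 68.2-fold higher. Ifit1, an interferon-induced inhibitor of translation (9.84 tags, 55 bases downstream), stood at 1.55, 93.7, 1458, 827, 3.37 and 524 and was 942-fold higher at 6 h (496 to 2060), or 432-fold against the other untreated library. Cmpk2, an interferon-induced nucleotide kinase (8.20 tags), was 723-fold higher at 6 h (445 to 1265) and Ifit3 (11.1 tags) 473-fold (162 to 2296, from 3 reads in the untreated library). Against the other untreated library, with 6 reads, Ifit3 was 278-fold higher (127 to 757). Cd40, the costimulatory receptor (7.38 tags), was 322-fold higher at 6 h (156 to 801), and Edn1, which encodes endothelin (8.20 tags), stood at 244 RPKM at 6 h against 0.194 in the untreated library, which is 1 read, and 0.660 in the other, which is 4 reads. Slfn1 (15.2 tags) was 143-fold higher at 24 h (72.4 to 332). Of the 6 interferon list genes with a member all 6 were at least 2-fold higher at 6, 12 and 24 h, as were 18, 17 and 18 of the 18 list genes with neither kind of peak. Of the 6 inflammatory genes with a member 5 were higher at those times, against 24, 22 and 21 of 24 with neither. Over all genes tested 9.35%, 8.88% and 9.98% were higher at 6, 12 and 24 h.

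Pparg, which encodes the fatty acid receptor PPARγ (8.61 tags), stood at 64.1, 70.2, 5.01, 2.77, 64.1 and 3.60 RPKM and was 23.1-fold lower at 12 h (13.0 to 45.4). These RPKM are of a transcript that starts at chr6:115372084, while the peak (chr6:115311657-115311851) lies by another listed start of the gene. Fam198b, which had 3 member peaks of 10.7, 11.1 and 9.02 tags, stood at 28.4, 24.0, 1.97, 1.17, 47.2 and 0.846 and was 55.8-fold lower at 24 h (33.6 to 100.1), or 33.6-fold lower with the first untreated library as its control. St6gal1, a sialyltransferase (9.84 tags), was 28.4-fold lower at 12 h (15.6 to 57.4), and Tsc22d3, a glucocorticoid-induced leucine zipper protein (13.9 tags), 27.9-fold lower at 6 h (16.4 to 51.6). For St6gal1 too the RNA is of a transcript with another start (chr16:23290543) than the one by the peak (chr16:23224541-23224735). Susd3 (11.1 tags) stood at 29.8, 15.7, 1.11, 0.358, 17.6 and 0.654 RPKM, from 1 to 3 reads in the later KLA libraries. Tcp11l2 (9.43 tags) was listed at 0 at 6 h, at least 43.0-fold lower against a floor of 3 reads, and 1810011H11Rik (10.7 tags) at least 20.1-fold. Usf1, which encodes an E-box factor (2 member peaks, of 13.9 and 7.79 tags), stood at 16.0, 2.75, 7.18, 10.1, 6.80 and 9.24 RPKM and was 5.80-fold lower at 1 h (3.10 to 11.8), but 2.47-fold against the second untreated library, where it was lower. The lowest ratios at 1 h were listed for the small RNA genes Snord99, Snora7a and Mir5133, which had 1 or 2 reads in the control and none at 1 h.

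Early response and housekeeping genes were also among the genes with a member. Klf6 stood at 79.9, 343, 197, 130, 130 and 184 RPKM and was 4.29-fold higher at 1 h (3.96 to 4.65), or 2.64-fold against the other untreated library. Junb, an AP-1 subunit with a peak of 28.7 tags at -82, stood at 78.7, 748, 189, 159, 38.5 and 99.8 and was 9.51-fold higher at 1 h (8.48 to 10.7), or 19.4-fold against the other untreated library. Of the 8 tested immediate early and stress genes with a member, 4 were at least 2-fold higher at 1 h. So were 5 of 11 with neither kind of peak and 3.65% of all genes tested. Of the Zfp zinc finger genes with a member, 18 of 79 were at least 2-fold lower at 1 h and 1 higher. For Zfp genes with neither kind of peak 21 of 113 were lower, and 4.09% of all genes tested. Of the proteasome subunits with a member, 4 of 7 were at least 2-fold higher at 24 h. So were 20 of 28 with neither and 9.98% of all genes tested. Lysosomal Ctsa, with 23.0 tags, stood at 531, 481, 336, 306, 425 and 261 RPKM. At each of 6, 12 and 24 h 4 of the 15 lysosome list genes with a member were at least 2-fold lower. At those times 5, 3 and 3 of 21 with neither were lower, and 22.4%, 16.3% and 10.6% of all genes tested. Pgd stood at 262, 208, 150, 255, 171 and 190 RPKM, and Pdp2 at 3.37, 1.67, 2.29, 2.22, 4.31 and 2.25, from 14 to 39 reads a library.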

How the data were processed

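Peaks and transcripts were used as the authors deposited them, on build mm9. Bowtie 0.12.7, STAR and HOMER appear in the submitters' processing notes, with no role stated. Per the file headers the peak lists are HOMER output, with an FDR of 0.001 and a p-value threshold of 1.00e-04 over input, and with at least 4-fold over input and over 10000 local bases. The authors scaled the signal of each peak, its normalised tag count, to a library of 10000000 tags. The deposited fold over input is a ratio from the authors' peak caller. The deposited focus ratio (a fraction) and peak score were summarised only. The labels' protocols give disuccinimidyl glutarate plus formaldehyde as fixatives and several antibodies per factor. Per the file headers the SREBP1 tag directory ends in "comb" and its input was untreated, and the LXR input came from KLA-treated cells (24 h), so replicates could not be compared.

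RPKM were computed by the authors for 33022 transcripts. Strand use in counting is not given in the sources, so reads of antisense or overlapping genes cannot be separated. Reads were recovered as RPKM times length times the library total that made 99.97% of values whole within 0.01 read. For a transcript of 1000 bases, a single read equals 0.374 to 0.453 RPKM. Each gene took its transcript of highest mean RPKM. Distances run from the peak centre to the nearest listed start on the gene's strand. With 1 library per condition no test was made. Ratios carry Clopper-Pearson 95% intervals on recovered reads, for counting error only, and a gene was called at a 2-fold change of RPKM + 1. Named genes are those of the 12 peaks with most tags, of 5 lipid lists, with the 4 highest and 4 lowest ratios per time, up to 3 per other list of 18 in all, and at the limits of the rule. Strong peaks outside these, and Anln, were chosen after their values were seen, and a few genes of these groups are not reported here. Members and lists were chosen with earlier results of these data known. Scripts (Python 3.11.15, pandas 2.3.3, SciPy 1.17.1) were tested on simulated data. Other windows, overlaps, thresholds, pseudocounts, filters, controls and scalings were tried.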

Additional observations from a re-analysis of the deposited data

Results flagged for a closer look

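Fabp4, which encodes the fatty acid binding protein of macrophages and adipocytes and had a member peak of 17.2 tags 827 bases downstream of its start, stood out among the named genes because it was at least 2-fold higher at one time of KLA and at least 2-fold lower at the others, on the log2(RPKM + 1) scale. Its log2 ratio was 1.15 after 1 h of KLA, but -3.00 after 6 h, -2.61 after 12 h and, against the second untreated library, which is the control of that time, -3.26 after 24 h. The RPKM were 834 in the first untreated library, 1846 at 1 h, 103 at 6 h, 136 at 12 h, 721 in the second untreated library and 74.2 at 24 h. The plain ratio was 2.21-fold higher at 1 h (95% interval 2.07 to 2.37) and 8.07-fold lower at 6 h (6.82 to 9.59), by counting error alone. The difference between times was not tested, since each time has 1 library.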

How the results depend on the processing

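No paired analysis was possible because every condition has 1 library, and for the same reason no replicate could be left out. Over the alternatives, shares, counts and medians stayed close to the reported value (counts within 1.5 times, shares within their 95% interval) in 122 cases, moved in 42 and turned sign in 1, and the log2 ratios of named genes stayed in 1878, crossed the 2-fold line in 76 and turned sign in 2. Within 500 bases of a start there were 2638 peaks without LXR, 72.19% of those near a start. The share was 58.62% when no LXR centre within 500 bases was allowed, 79.69% with SREBP1 peaks at least 8-fold over input and 80.60% with LXR peaks at least 8-fold over input. In the order 1, 6, 12 and 24 h of KLA, a pseudocount of 0.5 gave 5.602%, 27.64%, 19.72% and 10.93% of nearest genes lower. A pseudocount of 3 gave 0.9285%, 14.05%, 8.79% and 5.819% lower, 6.252%, 5.664% and 5.942% higher at 6, 12 and 24 h, and a median log2 ratio of -0.3523 at 6 h. Without a filter 6.507%, 5.784% and 6.946% were higher and 19.78%, 13.48% and 7.643% lower at 6, 12 and 24 h. With an RPKM of at least 5 in 2 libraries 3.625%, 9.495%, 8.675% and 9.538% were higher and 2.762% lower at 1 h. With the other untreated library 19.03% were lower at 12 h and 10.37% at 24 h. Rescaled libraries gave 2.352%, 10.03%, 8.171% and 7.83% lower, 12.47%, 9.811% and 9.099% higher at 6, 12 and 24 h, and medians of -0.01481 at 1 h, -0.03579 at 6 h and 0.003368 at 12 h, the last with its sign turned by the rescaling itself. The core TCACNCCAC was in 0.7984% and the NF-Y box in 27.54% of promoters within 150 bases before the start, a shorter window, and TCACNCCA, searched after seeing the data, in 4.99% of them at full length. Against the other untreated library the log2 ratio of Pltp at 12 h was 0.05971 and that of Usf1 at 6 h 0.06925, both negative against their own, because the 2 untreated libraries differ for these genes. Peaks of few tags, and genes of few reads at 2205187 to 2674826 reads per library, limit what can be told apart, and the intervals hold no biological spread.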
